A study of Mus musculus with 47 samples.

Results

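The genes described here are 44 named genes of DNA replication and mitosis, 24 that act in S phase and 20 that act in mitosis, among 53697 genes in the deposited table. They were chosen by name, with earlier results of these data known, and all 44 were found once in the table. The libraries came from primary microglia, the resident macrophages of the brain, grown from mouse forebrain in medium with serum. Wild-type cultures (WT, Jackson Laboratory 000664) were compared with cultures in which both mouse Apoe alleles were humanized to APOE ε3 (E3, Taconic 1548) or APOE ε4 (E4, Taconic 1549). Heterozygous (Apoe+/-) and knockout (Apoe-/-) cultures, both Jackson Laboratory 002052, completed the 5 genotypes, and all are labelled C57BL/6. Cells were left untreated or given myelin for 3 h, and both arms were collected at 24 h. Each of the 10 groups held 5 libraries, except E3 with and without myelin and Apoe+/- with myelin, which held 4. The labels give no age or sex and do not say whether replicates were separate cultures or animals, so the p-values rest on the scatter among libraries alone, which may be technical.

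A dividing cell first licenses its replication origins by loading the MCM2-7 helicase, then fires them, makes deoxynucleotides and copies its DNA. It then condenses, aligns and separates the chromosomes under the control of cyclin-dependent, Aurora and Polo kinases and of the anaphase-promoting complex. Many S phase genes are known targets of E2F factors, and many mitosis genes are known to be switched on later in the cycle through CHR and CCAAT elements bound by the DREAM, B-MYB and NF-Y complexes. Microglia in culture divide slowly, and their division depends on CSF1 receptor signalling. In bulk RNA, fewer cycling cells and less of these transcripts per cell cannot be told apart.

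RefSeq promoters of GRCm38.p6 were matched for 37 of the 44 members, as windows of 300 bases from 250 before the start on, and were searched on both strands. The CCAAT motif was searched by its name's letters. For CHR the letters were TTTGAA and also, as an alternative form, TTCGAA. For E2F they were TTTCCCGC, TTTCGCGC, TTTGCCGC or TTTGGCGC for E2F. E2F letters may overlap each other where they share a core. CHR letters lay in 13 of 16 matched mitosis members (81.2%) and in 4 of 21 matched S phase members (19%), against 20.2% of 17491 protein-coding genes. E2F letters lay in 10 of 21 S phase members (47.6%) and in 1 of 16 mitosis members (6.25%), against 3.29% of coding genes. CCAAT lay in 28 of 37 members (75.7%), against 42.3% of coding genes. A match is a description of these letters and shows no binding. In GRCm38 the genes lie as follows: Cdc20 at chr4:118432901-118437352 (minus strand), Ube2c at chr2:164769898-164778822 (plus strand), Mcm5 at chr8:75109569-75128439 (plus strand), Mcm6 at chr1:128331590-128359664 (minus strand), Rrm2 at chr12:24708241-24714146 (plus strand) and Pcna at chr2:132249162-132253314 (minus strand). The 6 promoters below are shown because their genes span the pattern of the results. Cdc20 and Ube2c fell strongly in Apoe-/- and E4 cultures and hold CHR letters. Mcm5 and Mcm6 are helicase genes with E2F letters that rose with myelin in Apoe-/- cultures. Rrm2 had the largest fall by log2 fold change in E4, Apoe-/- and Apoe+/-, and Pcna rose in Apoe-/-. By untreated mean level in E4 as a share of WT, Bub1 was lower than Rrm2, at 26% against 29.9%. Letters and changes did not always go together. Ccnb1 and Birc5 also fell in Apoe-/- and E4 cultures but hold no CHR letters. Of the matched members that rose with myelin in Apoe-/- cultures, Mcm3, Mcm5, Mcm6, Uhrf1 and Cdk1 hold E2F letters. Mcm2, Pcna, Cdc45, Prim1, Ccnb1 and Kif11 rose there and hold none. A link of letters to changes was not tested. The 250 bases before the start are printed 5′ to 3′, with matched letters of any of the motifs in capitals.
Cdc20 (chr4:118437344-118437593, minus strand): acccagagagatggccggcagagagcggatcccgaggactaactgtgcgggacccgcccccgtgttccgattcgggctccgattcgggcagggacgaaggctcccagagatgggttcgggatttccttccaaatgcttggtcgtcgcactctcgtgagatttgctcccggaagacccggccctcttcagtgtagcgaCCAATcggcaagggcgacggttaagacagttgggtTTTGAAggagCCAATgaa
Ube2c (chr2:164769679-164769928, plus strand): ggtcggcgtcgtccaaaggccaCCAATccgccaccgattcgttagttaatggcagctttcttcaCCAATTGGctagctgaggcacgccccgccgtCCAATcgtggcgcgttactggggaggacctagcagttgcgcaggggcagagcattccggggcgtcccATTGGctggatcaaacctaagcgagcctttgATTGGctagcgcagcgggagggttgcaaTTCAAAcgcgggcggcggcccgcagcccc
Mcm5 (chr8:75109259-75109508, plus strand): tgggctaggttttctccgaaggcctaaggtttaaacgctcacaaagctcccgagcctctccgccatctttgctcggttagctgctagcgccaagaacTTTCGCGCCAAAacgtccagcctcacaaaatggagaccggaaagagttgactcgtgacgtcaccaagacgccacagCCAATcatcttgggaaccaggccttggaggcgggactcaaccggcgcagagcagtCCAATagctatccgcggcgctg
Mcm6 (chr1:128359706-128359955, minus strand): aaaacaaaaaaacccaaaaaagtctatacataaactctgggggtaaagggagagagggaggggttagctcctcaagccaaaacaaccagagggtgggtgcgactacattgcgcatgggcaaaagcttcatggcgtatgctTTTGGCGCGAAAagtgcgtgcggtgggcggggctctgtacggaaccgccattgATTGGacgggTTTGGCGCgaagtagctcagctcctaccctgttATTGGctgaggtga
Rrm2 (chr12:24708004-24708253, plus strand): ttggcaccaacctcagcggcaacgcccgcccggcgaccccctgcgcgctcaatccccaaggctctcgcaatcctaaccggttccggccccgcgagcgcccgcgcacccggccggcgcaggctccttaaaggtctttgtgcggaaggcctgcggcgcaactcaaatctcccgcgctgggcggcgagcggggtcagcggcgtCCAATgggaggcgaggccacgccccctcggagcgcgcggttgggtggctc
Pcna (chr2:132253181-132253430, minus strand): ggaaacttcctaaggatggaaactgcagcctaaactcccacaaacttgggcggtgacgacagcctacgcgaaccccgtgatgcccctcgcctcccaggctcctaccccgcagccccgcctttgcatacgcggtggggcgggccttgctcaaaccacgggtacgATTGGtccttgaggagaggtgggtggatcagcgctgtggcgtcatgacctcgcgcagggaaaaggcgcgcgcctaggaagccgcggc
In Cdc20 the CHR letters stand at -18 between CCAAT at -53 and at -8, counted from the start. Ube2c holds 6 CCAAT matches and CHR letters at -29 on the opposite strand. In Mcm5 the E2F letters of both strands overlap, from -153 on, and in Mcm6 E2F letters stand at -110, -106 and -47. Rrm2 holds only 1 CCAAT at -50, and Pcna only 1 CCAAT, on the opposite strand at -87.

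Values are the authors' TPM, a transcript level per length relative to the library total, rescaled here to the total of nuclear protein-coding genes and then by a trimmed mean of log ratios (scaled TPM). Coding genes held 0.468% to 27.3% of the TPM of a library, with a median of 16.8%, and 4 libraries, all Apoe+/-, held under 6%. The depth of the libraries is unknown, since TPM keep none. Mouse Apoe was 58720 ± 6898 scaled TPM (SD, n = 5) in untreated WT and 76.3 ± 7.70 (SD, n = 5) in untreated Apoe-/-, and E3 and E4 libraries lay between 87.8 and 747, far under WT. Untreated Apoe+/- libraries ranged from 9224 to 64220. The 12 microglial markers were tested in full and summed to 14440 ± 1024 in untreated WT and 20780 ± 991 in untreated Apoe-/- (SD, n = 5 each), and to 12400 to 23700 in all libraries outside Apoe+/-. In Apoe+/- they ranged from 5270 (untreated replicate 5) and 8710 (myelin replicate 2) to 31200 (myelin replicate 1). Fibroblast and pericyte markers (10 genes, 8 tested) had median sums of 2620 (WT), 2230 (E3), 1100 (E4), 177 (Apoe+/-) and 229 (Apoe-/-) without myelin. Astrocyte markers (12 genes) had median sums of 165 (WT), 1160 (E3), 2390 (E4), 65.6 (Apoe+/-) and 119 (Apoe-/-). WT, E3 and E4 came from different mouse lines, and E3 and E4 from another supplier than the rest, so line and genotype cannot be told apart for these; Apoe+/- and Apoe-/- share 1 line number, which differs from that of WT.

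Of the 44 members, 42 reached 5 scaled TPM in at least 4 libraries and were tested among 10894 genes with limma on log2(scaled TPM + 1). Mcm10, an initiation factor of the fork, ranged from 1.13 to 5.93 scaled TPM, and Pola1, the catalytic subunit of polymerase alpha, stayed at or below 4.80. Both are given as levels only. A member was called where its adjusted p (Benjamini-Hochberg over all tested genes) was under 0.05. Other settings are named below only where they move a count by over 1.5 times. Counts at an unadjusted p under 0.05, and counts with a library left out, come without a share of all genes. They cannot be judged against one.

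The members were highest in untreated WT, lower in E3, lower again in E4 and lowest in Apoe-/- and Apoe+/-. Summed over the 44 genes, they reached 1519 ± 79.9 scaled TPM in WT (SD, n = 5), 1255 ± 48.4 in E3 (n = 4), 848 ± 68.4 in E4 (n = 5), 778 ± 35.3 in Apoe-/- (n = 5) and 532 ± 133 in Apoe+/- (n = 5). Of the 44 group means, 39 were highest in WT, and 39 fell in the order WT, E3, E4. In 27 members the order was WT, E3, E4, Apoe-/-, Apoe+/-. The exceptions to a WT maximum were Pcna, Cdt1 and E2f1, highest in Apoe-/-, Lig1, highest in E4, and Ccna2, highest in E3. The mean of log2 levels over the mitosis members was 4.56 ± 0.0824 (SD, n = 5) in WT and 3.20 ± 0.113 in Apoe-/- (SD, n = 5). Over the S phase members it was 4.63 ± 0.0574 and 3.76 ± 0.0462 (SD, n = 5 each).

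**Figure D1:**
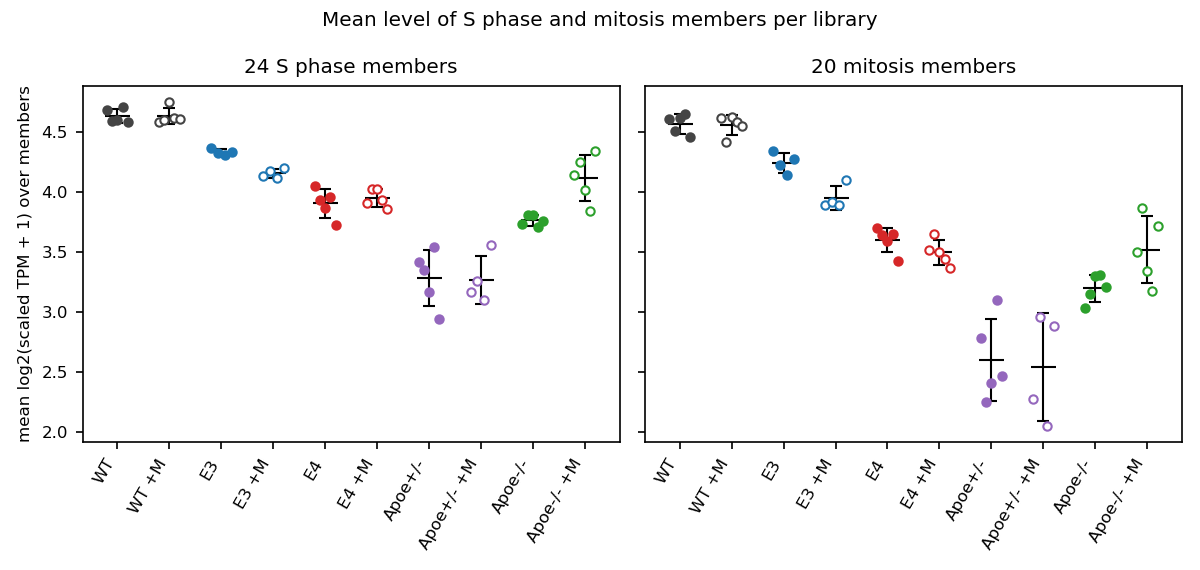
Mean of log2(scaled TPM + 1) over the 24 S phase members (left) and the 20 mitosis members (right) in each of the 47 libraries, by genotype without (filled) and with myelin (open, +M), with the group mean and SD as bars. The untreated Apoe-/- libraries lie under every WT, E3 and E4 library in mitosis members, and the Apoe+/- libraries scatter most.

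Against untreated WT, 39 of 42 members fell in E4 and none rose, while 40.1% of all tested genes were called lower in this comparison and 27.2% higher. In Apoe-/- 37 members fell and 2 rose, against 33.3% and 28.3% of all genes. In Apoe+/- 38 members fell and none rose, against 38.4% lower and 20.4% higher. In E3 23 members fell and 2 rose, against 35.6% lower and 26.3% higher. The median log2 fold change of the members was -0.98 in E4, -1.13 in Apoe-/-, -1.62 in Apoe+/- and -0.30 in E3, beside medians over all tested genes of -0.09, -0.04, -0.15 and -0.06. These 4 comparisons share the WT libraries. Scaling to the coding total alone moved the median of all genes from -0.09 to 0.04 in E4 against WT, by over 0.1, and left 36 members lower and 1 higher. The E3 count was the least stable of the 4: 13 members fell with that scaling (27.8% of all genes lower) and 11 in a fit of equal library weights (20% lower).

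Whole groups did not overlap in many members. Every Apoe-/- library lay under every WT library for 37 of 42 members, against 24.9% of all tested genes. The same held for 34 members in E4 (30.1% of genes), 34 in Apoe+/- (27.7%) and 20 in E3 (28.2%). Some members passed the filter on low values mainly through the group where they were high. Kif11 reached 5 scaled TPM in 9 libraries, all WT, and Bub1 in 13, mostly WT. Mki67 did so in 9, Cenpe in 8, Cenpf in 8 and Cdc6 in 11, mostly WT and E3. Such members had to be lower elsewhere, so these counts over tested members are a description.

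**Figure D2:**
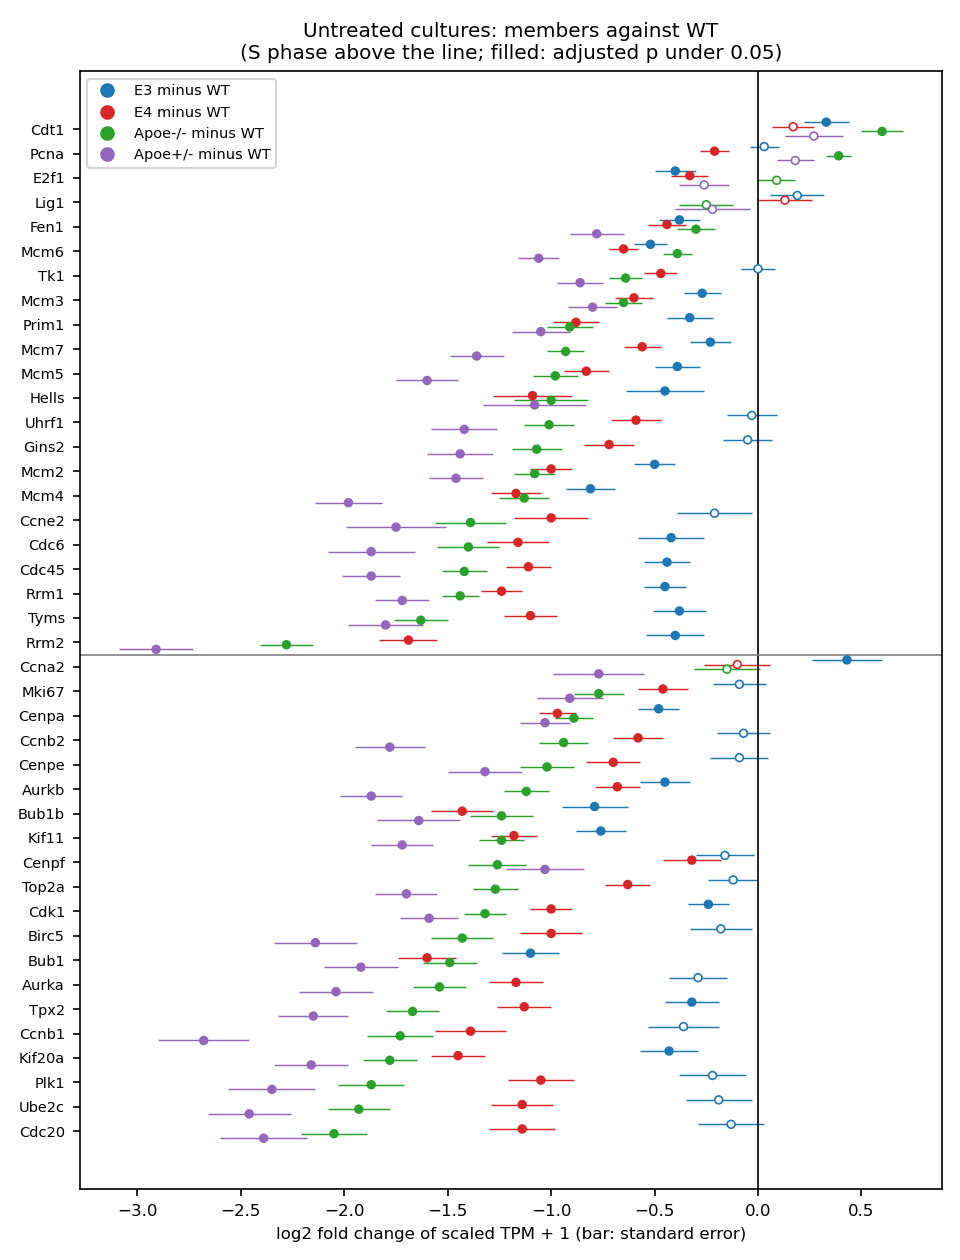
Log2 fold change of the 42 tested members in untreated E3, E4, Apoe-/- and Apoe+/- against WT, with standard errors, ordered within S phase and mitosis by the Apoe-/- value. Filled points passed an adjusted p of 0.05 in limma. Cdt1 and Pcna stand right of 0 in Apoe-/- (0.60 and 0.39), while Rrm2 reaches -2.28 there and -2.91 in Apoe+/-.

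All 4 genes of nucleotide supply fell in E4, Apoe-/- and Apoe+/-, and 3 fell in E3. Of all tested genes 40.1% were lower in E4, 33.3% in Apoe-/-, 38.4% in Apoe+/- and 35.6% in E3. The E3 class counts here and below rest on the least stable of these comparisons. Rrm2 makes the small subunit of ribonucleotide reductase, which converts ribonucleotides into the building blocks of DNA. Its levels were 74.7, 74.5, 84.7, 89.1 and 81.7 scaled TPM in untreated WT and 69.2, 50.7, 65.8 and 58.4 in E3. In E4 they were 21.8, 27.1, 23.2, 28.2 and 20.5, and in Apoe-/- 14.6, 17.1, 16.4, 15.9 and 13.8. Apoe+/- libraries stood at 8.71, 7.56, 7.08, 14.3 and 5.19. Each of these groups lay apart from the next one in this order, except that 1 Apoe+/- library at 14.3 overlapped Apoe-/-. The mean level in Apoe-/- was 19.2% of WT and in E4 29.9%. Against WT the log2 fold change was -2.28 ± 0.13 (SE) in Apoe-/- (limma adjusted p = 8.13e-19), -1.69 ± 0.14 in E4 (adjusted p = 1.96e-14) and -0.40 ± 0.14 in E3 (adjusted p = 0.0123). Rrm1, the large subunit, fell less in each of Apoe-/- and E4, by 1.44 ± 0.09 (SE) and 1.24 ± 0.10 on the log2 scale. Tyms, thymidylate synthase, kept 64.2 ± 8.41 scaled TPM in WT (SD, n = 5) and 20.6 ± 5.40 in Apoe-/- (SD, n = 5). Tk1, thymidine kinase of the salvage route, was 40.6 ± 3.75 in WT and 40.4 ± 3.20 in E3 (SD, n = 5 and 4) and fell by 0.64 ± 0.08 (SE) on the log2 scale in Apoe-/-.

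In the licensing and fork class, 14 of 16 genes were tested, and 12 fell in E4, 11 in Apoe-/- and 10 in E3 against untreated WT. The shares of all genes called lower were 40.1%, 33.3% and 35.6%. All 6 MCM2-7 helicase genes fell in E3, E4, Apoe+/- and Apoe-/-. Mcm6 was the most abundant of them, at 60.3, 55.1, 51.3, 56.6 and 58.8 scaled TPM in untreated WT and 41.4, 40.3, 44.7, 44.9 and 38.8 in Apoe-/-. Its groups did not overlap, and the log2 fold change was -0.39 ± 0.07 (SE, limma adjusted p = 9.97e-06). Mcm4 fell more, by 1.13 ± 0.12 (SE) in Apoe-/- and by 1.17 ± 0.12 in E4 on the log2 scale. Cdc45, which joins the helicase to form the active fork complex, fell by 1.42 ± 0.11 (SE) on the log2 scale in Apoe-/-.

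Pcna and Cdt1 went against the rest of their class. Pcna is the sliding clamp that holds polymerases on DNA and also serves repair. It stood at 133, 142, 147, 131 and 145 scaled TPM in untreated WT and at 179, 185, 182, 204 and 176 in Apoe-/-. All Apoe-/- libraries were above all WT libraries, by 0.39 ± 0.06 on the log2 scale (SE, limma adjusted p = 1.53e-06). In E4 Pcna was lower than in WT by 0.21 ± 0.07 (SE, limma adjusted p = 0.00481), at 126, 128, 115, 120 and 132, where 1 library overlapped WT. Cdt1, the licensing factor that loads the helicase and is degraded once S phase starts, stood at 23.8, 23.2, 18, 15.7 and 21.7 in WT and at 32.9, 32, 35.2, 28.4 and 28.2 in Apoe-/-. Its groups did not overlap either, and it rose by 0.60 ± 0.10 (SE, limma adjusted p = 2.47e-06). Cdt1 also rose in E3, by 0.33 ± 0.11 (SE, limma adjusted p = 0.00713), a call that was lost with equal library weights (limma adjusted p = 0.112). Lig1, the ligase that seals the lagging strand, passed the test in none of the 4 comparisons with untreated WT, with log2 fold changes between -0.25 and 0.19. The pseudogenes Pcna-ps1 and Pcna-ps2 reached at most 0.590 scaled TPM.

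Among the S phase regulators E2f1, the activating E2F factor, was nearly level between WT and Apoe-/-, at 17.4 ± 2.38 and 18.7 ± 2.40 scaled TPM (SD, n = 5 each; log2 difference 0.09 ± 0.09, SE, limma adjusted p = 0.405). Uhrf1, which maintains DNA methylation behind the fork, was 14.3 ± 2.11 in WT and 6.53 ± 1.23 in Apoe-/- (SD, n = 5 each), a fall of 1.01 ± 0.12 (SE) on the log2 scale. Ccne2, a cyclin of the start of S phase, fell by 1.39 ± 0.17 (SE) on the log2 scale. Hells, a chromatin remodeller, was 8.14 ± 2.28 in WT and 3.51 ± 1.26 in Apoe-/- (SD, n = 5 each) and also fell.

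**Figure D3:**
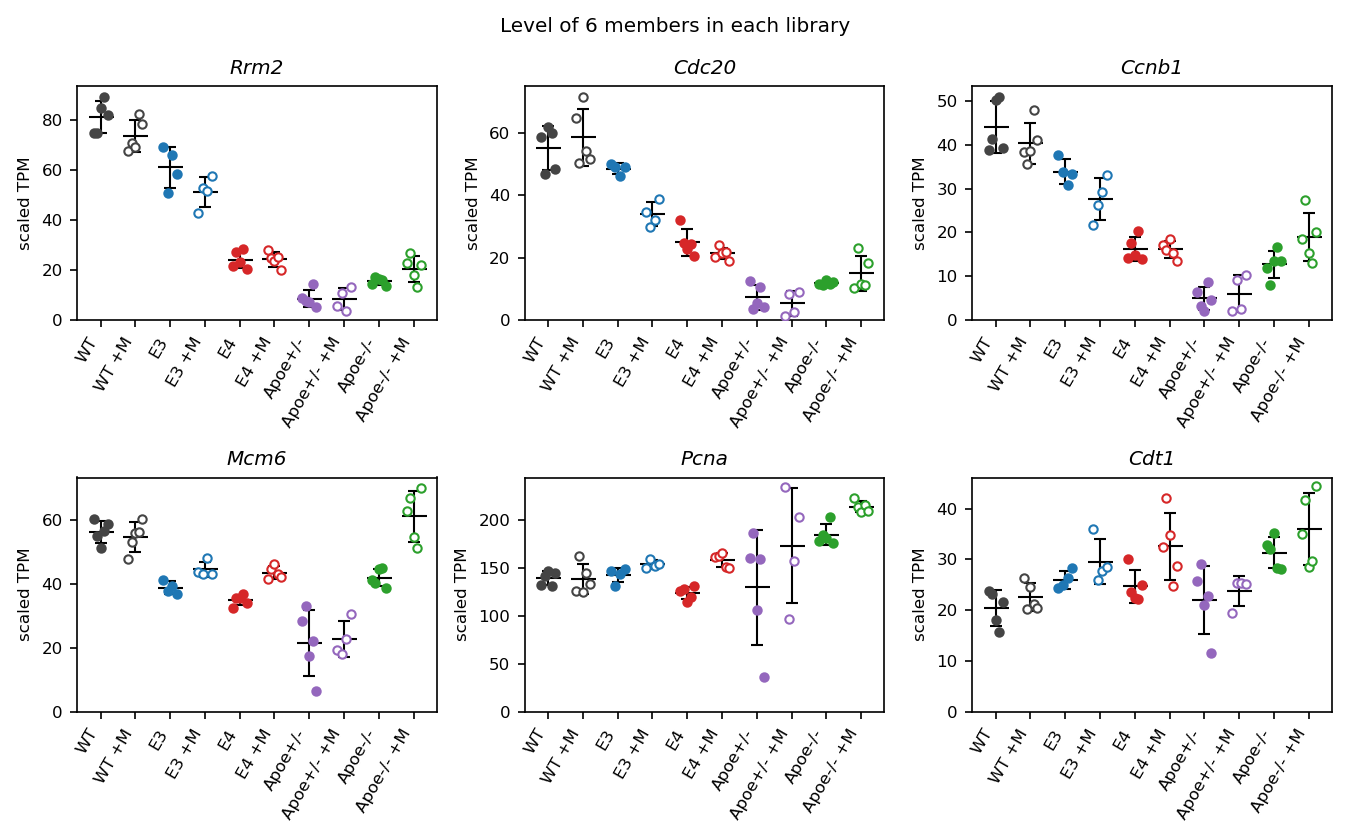
Scaled TPM of Rrm2, Cdc20, Ccnb1, Mcm6, Pcna and Cdt1 in each of the 47 libraries, by genotype without (filled) and with myelin (open, +M), with group mean and SD as bars and axes from 0. Without myelin the means of Rrm2, Cdc20 and Ccnb1 step down from WT to E4 to Apoe-/-, and E4 and Apoe-/- overlap for Ccnb1. Pcna has its highest mean in Apoe-/- with myelin, at 209 to 224, and 1 Apoe+/- library reaches 235.

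Cyclins and kinases of mitosis fell in the same order. Of 7 genes, 6 fell in E4, 6 in Apoe-/- and 7 in Apoe+/-, while 2 fell and 1 rose in E3. Of all genes 40.1% were lower in E4, 33.3% in Apoe-/- and 38.4% in Apoe+/-, and in E3 35.6% were lower and 26.3% higher. Cdk1, the kinase that drives entry into mitosis, had the highest level of the class, at 123, 129, 135, 139 and 113 scaled TPM in untreated WT and 39.7, 45.1, 60.5, 55.2 and 46 in Apoe-/-. The groups lay far apart, with a log2 fold change of -1.32 ± 0.10 (SE, limma adjusted p = 2.18e-15). Its partner cyclin B1, Ccnb1, stood at 38.7, 41.3, 50.1, 50.9 and 39.2 in WT, at 14.2, 17.6, 14.8, 20.4 and 13.9 in E4 and at 12, 8.11, 13.4, 16.7 and 13.4 in Apoe-/-. E4 and Apoe-/- overlapped each other but not WT, and the log2 fold changes were -1.39 ± 0.17 and -1.73 ± 0.16 (SE). Plk1, the Polo kinase of spindle and cytokinesis, fell by 1.05 ± 0.16 in E4 and by 1.87 ± 0.16 (SE) in Apoe-/- on the log2 scale. Ccna2, cyclin A2, which serves both S phase and mitosis, differed from its class: it was not called in E4 (-0.10 ± 0.16, SE, limma adjusted p = 0.608) or Apoe-/- (-0.15 ± 0.16, limma adjusted p = 0.426). Its untreated WT libraries spread widely, at 18.8, 11.2, 10.3, 7.48 and 8.22.

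All 11 spindle and kinetochore genes fell in E4, Apoe-/- and Apoe+/-, and 6 fell in E3. The shares of all genes called lower were 40.1%, 33.3%, 38.4% and 35.6% in the same order. Cdc20, the activator of the anaphase-promoting complex, stood at 58.8, 46.9, 62.1, 60.1 and 48.4 scaled TPM in untreated WT and at 50.1, 49.2, 46.3 and 49 in E3. In E4 it stood at 32.3, 24.7, 22.8, 24.5 and 20.7, and in Apoe-/- at 11.7, 11.4, 12.8, 11.7 and 12.3. E3 overlapped WT, whereas E4 and Apoe-/- were apart from both and from each other. The log2 fold change against WT was -0.13 ± 0.16 in E3 (SE, limma adjusted p = 0.504), -1.14 ± 0.16 in E4 (limma adjusted p = 3.40e-08) and -2.05 ± 0.16 in Apoe-/- (limma adjusted p = 2.28e-15). Ube2c, the ubiquitin-conjugating enzyme of the same complex, was 109 ± 13.6 in WT (SD, n = 5), 48.2 ± 6.84 in E4 (n = 5) and 27.1 ± 3.24 in Apoe-/- (n = 5). Bub1, a spindle checkpoint kinase, was already low in E3, at 4.19 ± 0.304 (SD, n = 4) against 9.96 ± 1.82 in WT (n = 5). This was a fall of 1.10 ± 0.14 (SE) on the log2 scale. Bub1 passed the filter on low values mainly through WT, so its fall is a description. Birc5, survivin, ranged from 66.1 to 81.6 in WT and from 18.8 to 33.5 in Apoe-/-, a fall of 1.43 ± 0.15 (SE). Cenpa, the centromere histone, ranged from 65 to 80.8 in WT, 29.8 to 42.1 in E4 and 31.9 to 43.4 in Apoe-/-, where it fell by 0.89 ± 0.09 (SE). E4 and Apoe-/- overlapped for Cenpa and lay under WT. Top2a, the topoisomerase that untangles sister chromosomes, fell by 1.27 ± 0.11 (SE) and Mki67, the chromosome coat protein used as a proliferation marker, by 0.77 ± 0.12 in Apoe-/-. Mki67 was low in all groups, with means of 2.05 to 5.45.

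**Figure D4:**
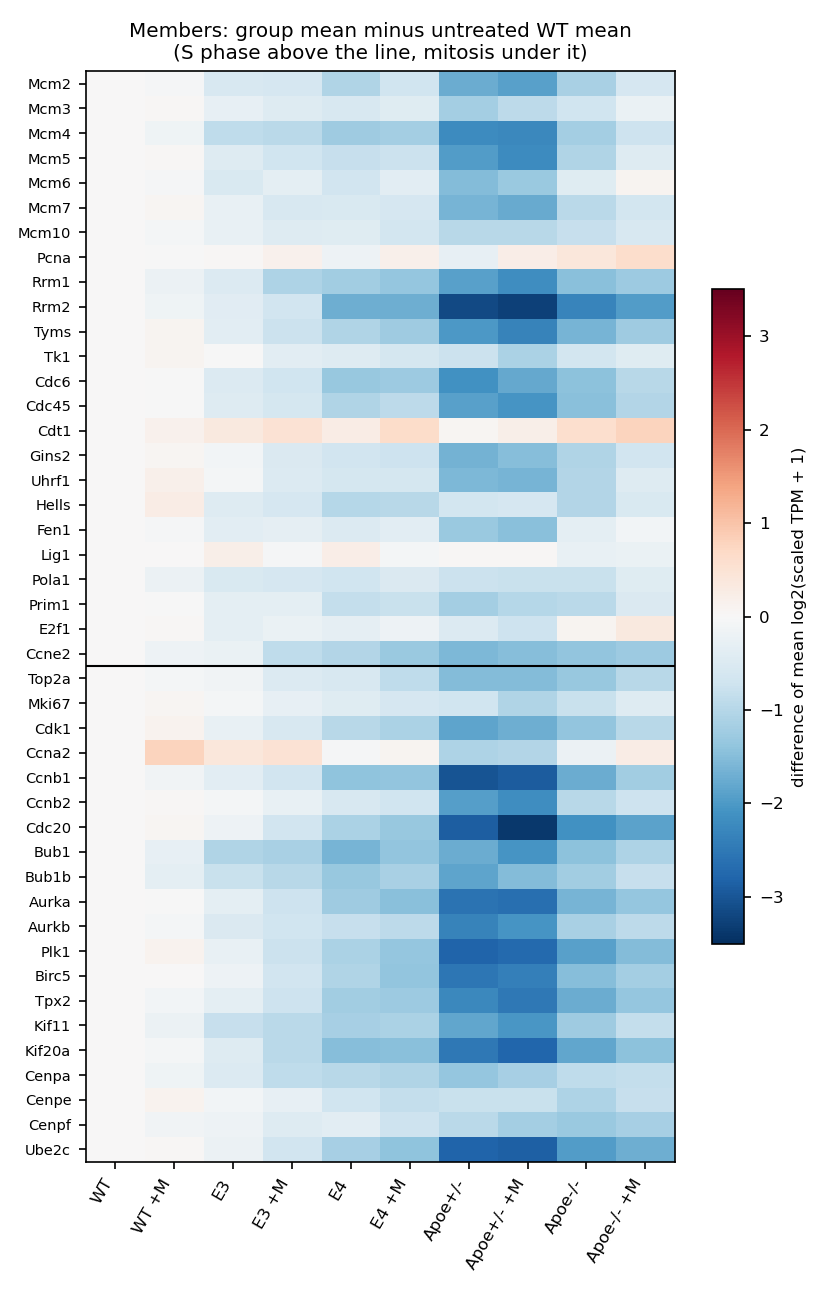
Group mean of log2(scaled TPM + 1) minus that of untreated WT for all 44 members (rows; S phase above the line, mitosis under it) in the 10 groups (columns; +M with myelin), as simple means of the libraries. Blue is lower and red is higher; the Apoe+/- columns are the darkest, and Pcna and Cdt1 are red in both Apoe-/- columns.

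E4 against E3 compares the 2 human alleles, the contrast that the study's design text describes. In untreated cultures 35 of 42 members were lower in E4 and none higher, while 14.5% of all tested genes were lower and 11.9% higher. The median over members was -0.54 on the log2 scale and that over all genes 0.00. Rrm2 fell by 1.28 ± 0.14 (SE, limma adjusted p = 3.67e-09), Ccnb1 by 1.03 ± 0.17 (adjusted p = 1.35e-05), Kif20a, a kinesin of cytokinesis, by 1.02 ± 0.14 (adjusted p = 3.32e-07) and Cdc20 by 1.01 ± 0.17 (adjusted p = 9.11e-06). By class, 4 of 4 nucleotide supply genes fell, as did 10 of 14 licensing and fork genes, 6 of 7 cyclins and kinases and 10 of 11 spindle and kinetochore genes. The 7 members that were not called were Mcm6, Cdt1, Fen1, Lig1, E2f1, Aurkb and Cenpf, with log2 differences from -0.23 to 0.07. Every E4 library lay under every E3 library for 24 members, against 9.91% of genes. With equal library weights 14 members were called lower (3.48% of genes), and 26 (10.1%) when the 4 libraries of low coding share were also left out.

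After myelin 21 members were lower in E4 than in E3 and none higher, while 12.8% of all genes were lower and 14.4% higher. Rrm2 was lower by 1.15 ± 0.13 on the log2 scale (SE, limma adjusted p = 8.50e-09), at 28.1, 24.9, 23.5, 25.2 and 20 scaled TPM in E4 and 42.8, 52.6, 51.6 and 57.5 in E3. Again no libraries overlapped. Among licensing and fork genes only Cdc6 and Prim1 were called, whereas 7 of 11 spindle and kinetochore genes were. Groups did not overlap for 14 members (6.54% of genes). The 21 calls rested on 1 library, E3 myelin replicate 4, which had a fitted weight of 4.668 against 0.681 to 0.918 for the other 3 of its group: without it 5 members were called lower, with equal weights 4 (1.88% of genes lower), and at equal weights without low-coding libraries 11 (5.21%).

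Fibroblast and pericyte markers moved in the same direction as the members between E4 and E3. All 8 tested were lower, with a median log2 difference of -1.21 untreated and -1.07 after myelin. Of all tested genes 14.5% were called lower untreated and 12.8% after myelin. The summed range of these markers was 748 to 1190 in untreated E4 and 1960 to 2460 in E3. Astrocyte markers went the other way, with 10 of 12 higher in E4 untreated, where 11.9% of all tested genes were called higher. They had a summed range of 1840 to 3130 against 1010 to 1190. Against WT all 8 fibroblast and pericyte markers were also lower in Apoe-/-, where the range was 148 to 894, against 2260 to 2910. There 33.3% of all tested genes were called lower. Within groups the library with the highest marker sum often also had the highest mean log2 level over the members. These were untreated WT replicate 4 (markers 2910, members 4.68), WT myelin replicate 3 (3180 and 4.69) and untreated E3 replicate 1 (2460 and 4.355). E3 myelin replicate 4 (1760 and 4.15), untreated E4 replicate 1 (1190 and 3.887) and Apoe-/- myelin replicate 2 (474 and 4.072) were others. So were untreated Apoe+/- replicate 4 (362 and 3.339) and Apoe+/- myelin replicate 4 (271 and 3.247). The exceptions were untreated Apoe-/- replicate 5 and E4 myelin replicate 4. The former, at 894, had 3.505, within the 3.415 to 3.575 of its group. The latter, at 883, had 3.706, in a group that reached 3.854. None of the 8 tested markers was at 0 in any library, and over all libraries Acta2 had a median of 647, Fn1 of 116 and Col1a1 of 74 scaled TPM. The 2 untested ones, Lum and Rgs5, were at 0 in 1 and 4 libraries. The coding share was 23.2 ± 2.56% in untreated WT and 20.8 ± 3.41% in Apoe-/- (SD, n = 5 each), but 13.65 ± 2.32% in E3 (n = 4) and 12.1 ± 3.25% in E4 (n = 5). Border macrophage and monocyte markers (8 genes, 3 tested) were lower in all 3 tested in each of E3, E4, Apoe+/- and Apoe-/- against untreated WT. Of all tested genes 35.6%, 40.1%, 38.4% and 33.3% were called lower, in the same order. The part of these cell types, and of the coding share, in the members' differences was not tested.

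With myelin, Apoe-/- cultures were again lower than WT in 36 members and higher in 3 (23.9% of all genes lower, 29.8% higher). The 3 higher members were Pcna (0.67 ± 0.08, SE), Cdt1 (0.59 ± 0.12) and E2f1 (0.32 ± 0.11). Pcna stood at 224, 214, 209, 216 and 210 scaled TPM in Apoe-/- and at 126, 163, 125, 145 and 134 in WT. No libraries overlapped. Cdc20 was lower by 2.01 ± 0.18 (SE, limma adjusted p = 1.55e-12) and Rrm2 by 1.80 ± 0.16 (adjusted p = 4.71e-13). Mcm6 no longer differed beyond the test (0.18 ± 0.09, SE, limma adjusted p = 0.0792).

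Myelin changed the members little in WT, where only Ccna2 rose and none fell (8.20% of all genes rose, 1.48% fell). Ccna2 stood at 23.5, 9.16, 17.4, 25.2 and 26.2 scaled TPM with myelin, which overlapped the untreated libraries, and rose by 0.98 ± 0.19 on the log2 scale (SE, limma adjusted p = 0.000143). The summed level of the members was 1528 ± 85.8 with myelin and 1519 ± 79.9 without (SD, n = 5 each). Without WT myelin replicate 4, 2 members were called.

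In Apoe-/- cultures 13 members rose with myelin and none fell, while 3.48% of all genes rose and 2.41% fell, and all 42 tested members had a positive log2 fold change. Of the 13, 9 were licensing and fork genes: Mcm2, Mcm3, Mcm4, Mcm5, Mcm6, Pcna, Cdc45, Gins2 and Prim1. The others were Uhrf1, Cdk1, Ccnb1 and Kif11. Mcm6 went from 41.4, 40.3, 44.7, 44.9 and 38.8 scaled TPM to 62.9, 66.9, 54.7, 51.4 and 70.2, with no overlap, by 0.51 ± 0.08 on the log2 scale (SE, limma adjusted p = 3.53e-05). Mcm2 stood at 17.2, 13.5, 16.6, 13.9 and 12.3 untreated and at 21.6, 24.8, 20.6, 15.7 and 28.9 with myelin, where 1 library overlapped (0.51 ± 0.10, SE, limma adjusted p = 0.000851). Groups did not overlap for 4 members, Mcm3, Mcm5, Mcm6 and Pcna, against 4.81% of genes. The mean log2 level of the S phase members was 4.12 ± 0.194 (SD, n = 5) with myelin against 3.76 ± 0.0462 without, so the myelin libraries spread more. The count depended on single libraries: 5 without Apoe-/- myelin replicate 1 or replicate 2, 6 without replicate 5, 8 without untreated replicate 2 or 3, and 21 without myelin replicate 4. With equal weights it was 0 in limma (0.0551% of genes higher), and 5 (1.18%) when the low-coding libraries were also left out. In the former fit 14 members had an unadjusted p under 0.05. No share of all genes at that p is given, so the 14 cannot be judged against one. Fibroblast and pericyte markers summed to medians of 229 without and 215 with myelin in these cultures. Myelin replicate 2, without which 5 members were called, had the highest marker sum of its group, 474, and the highest mean log2 level over the members, 4.072. The part of these cells was not tested.

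**Figure D5:**
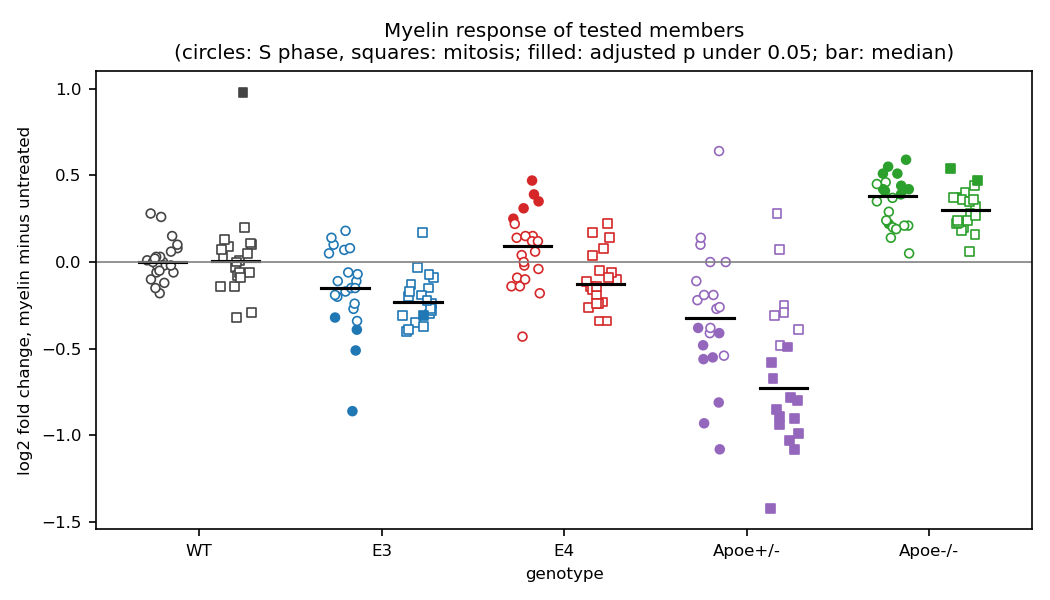
Log2 fold change with myelin of the 42 tested members in each genotype, as circles for S phase and squares for mitosis, filled where adjusted p was under 0.05 in limma, with bars at the medians. All Apoe-/- points lie above 0, and the Apoe+/- points reach from -1.42 (Cdc20) to 0.64 (Ccne2).

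In E4 cultures 5 members rose with myelin and none fell (14.5% of all genes rose, 8.25% fell), so the members rose no more often than all genes did. The 5 are licensing and fork genes. The coding share was 12.1 ± 3.25% in untreated E4 and 18.6 ± 3.42% with myelin (SD, n = 5 each), and its part was not tested. Pcna went from 126, 128, 115, 120 and 132 scaled TPM to 162, 163, 166, 151 and 150, without overlap, by 0.39 ± 0.06 on the log2 scale (SE, limma adjusted p = 1.50e-05). Cdt1 rose by 0.47 ± 0.10, Mcm2 by 0.35 ± 0.09, Mcm6 by 0.31 ± 0.07 and Mcm3 by 0.25 ± 0.09 (SE). With equal weights none was called in limma (1.51% of genes higher), with 2 at an unadjusted p under 0.05. Scaling to the coding total left 4 higher, without Mcm3, and called 2 lower. In E3 cultures 5 members fell and none rose (6.92% of all genes fell, 10.7% rose): Rrm1 by 0.51 ± 0.10, Ccne2 by 0.86 ± 0.19, Gins2 by 0.39 ± 0.13, Tk1 by 0.32 ± 0.09 and Cenpa by 0.31 ± 0.10 (SE). Rrm1 stood at 43.1, 42.4, 39.3 and 42.6 untreated and at 25.2, 21.8, 30.9 and 31.4 with myelin, without overlap. The E3 count was 3 without untreated replicate 3 or 4 or without myelin replicate 3 or 4 (the last of these at a fitted weight of 4.668, the highest of the 47 libraries), and 10 and 9 without Apoe+/- untreated replicate 1 and myelin replicate 1. It was 2 with equal weights and without low-coding libraries (1.80% of genes lower), and 0 with equal weights on all libraries (0% lower), with 7 at an unadjusted p under 0.05. All 8 fibroblast and pericyte markers had negative log2 fold changes with myelin in both E3 and E4. Their medians were -0.43 and -0.34, beside 0.01 and 0.02 over all tested genes. Their part was not tested.

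In Apoe+/- cultures 21 members were called lower with myelin and none higher (15.1% of all genes lower, 3.43% higher), and this count did not hold up. Cdc20 had the largest value, -1.42 ± 0.23 (SE, limma adjusted p = 3.24e-05), at 12.6, 3.72, 5.67, 10.7 and 4.09 scaled TPM untreated and 1.42, 8.47, 2.64 and 8.97 with myelin. The groups overlapped. A single library, myelin replicate 3, carried a fitted weight of 4.473, against 0.119 to 0.261 for the other 3 of its group. With equal weights on all libraries no member was called in limma, with 3 at an unadjusted p under 0.05. Without the 4 low-coding libraries no member was called in limma, with weights (0% of genes lower) or without (0.121%), and 3 and 6 had an unadjusted p under 0.05. The count was also 0 without untreated replicate 1, myelin replicate 1 or myelin replicate 3, 9 without myelin replicate 2, 8 without myelin replicate 4 and 34 without untreated replicate 4.

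Averaged over the 5 genotypes, 5 members rose and 11 fell with myelin (12.7% of all genes rose, 13.7% fell). The members thus rose no more often than all genes did. Cdc20 fell by 0.33 ± 0.08 (SE, limma adjusted p = 0.00152), and Mcm6 rose by 0.15 ± 0.04 (limma adjusted p = 0.00222). This average includes Apoe+/-, and it held 0 members without Apoe+/- untreated replicate 1, 1 without myelin replicate 1, 3 without myelin replicate 3 and 9 without myelin replicate 4.

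The differences between myelin responses were tested as interactions. Compared with WT, the Apoe-/- response was more positive for 6 members and more negative for none (5.93% of all genes more positive, 6.13% more negative): Mcm6 (0.57 ± 0.11, SE), Mcm2 (0.52 ± 0.15), Mcm4 (0.54 ± 0.18), Kif11 (0.61 ± 0.17), Bub1 (0.70 ± 0.21) and Bub1b (0.69 ± 0.23). The count was 0 with equal weights (0% of genes), with 11 at an unadjusted p under 0.05 in limma, and 3 with equal weights and without low-coding libraries (1.44%). The weighted count was 3 without WT myelin replicate 1 or 3, Apoe-/- untreated replicate 3 or Apoe-/- myelin replicate 2, and 13 and 10 without WT and Apoe-/- myelin replicate 4. The E4 response exceeded that of WT for Mcm6 (0.37 ± 0.11) and Pcna (0.45 ± 0.10) and was under it for Ccna2 (-0.81 ± 0.25, SE). Of all genes 5.81% were more positive and 3.97% more negative, so the members differed no more often than all genes did. The E4 count was 1 without WT untreated replicate 5 and 6 without WT myelin replicate 4. The E3 response was under that of WT for Tk1 (-0.38 ± 0.13), Uhrf1 (-0.61 ± 0.19) and Ccna2 (-0.81 ± 0.25, SE), and above it for none (6.43% of genes more positive, 3.74% more negative). With equal weights neither the E3 nor the E4 response differed from WT for any member in limma, with 3 and 1 at an unadjusted p under 0.05. The E3 count was 0 without WT untreated replicate 5, E3 untreated replicate 4 or E3 myelin replicate 3 or 4, 1 without WT untreated replicate 4, WT myelin replicate 3 or E3 untreated replicate 1 or 2, and 6 without WT myelin replicate 4. Between E4 and E3 no member's response differed in limma (0.174% of genes more positive, 0.165% more negative), with 10 at an unadjusted p under 0.05.

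Other genes of mitosis and of replication and repair, listed apart from the members, were also mostly called lower or not called. Of 48 tested other mitosis genes, 39 were lower and none higher in untreated E4 against E3 (median -0.54). In Apoe-/- against WT 44 were lower and 1 higher (median -1.12). Of all tested genes 14.5% were lower and 11.9% higher in E4 against E3, and 33.3% lower and 28.3% higher in Apoe-/- against WT. Cks1b, a subunit of cyclin-dependent kinases, fell by 0.91 ± 0.10 and 1.80 ± 0.09 on the log2 scale in these comparisons, and Anln, a cytokinesis protein, by 0.99 ± 0.15 and 2.04 ± 0.14 (SE). Of 42 tested other replication and repair genes, 19 were lower and none higher in E4 against E3 (median -0.25). In Apoe-/- against WT 28 were lower and 2 higher (median -0.45), beside the same shares of all genes. Rpa1, of the complex that coats single-stranded DNA, fell by 0.61 ± 0.08 and 1.09 ± 0.08 (SE).

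Calls among regulators of the cell cycle went both ways. Of 24 tested cell cycle brakes, 9 were higher and 10 lower in Apoe-/- against untreated WT, where 28.3% of all genes were higher and 33.3% lower. In E4 against E3, 5 were higher and 2 lower, beside 11.9% and 14.5% of all genes. Cdkn1a, the p21 inhibitor, was 944 ± 54.4 scaled TPM in untreated WT and 611 ± 23.3 in Apoe-/- (SD, n = 5 each). Among 12 tested G1 cyclins and kinases, Ccnd1, cyclin D1, was 19.1 ± 0.821 in WT (n = 5), 61.5 ± 5.70 in E3 (n = 4), 61.4 ± 8.98 in E4 (n = 5) and 23.9 ± 3.86 in Apoe-/- (SD, n = 5). It rose by 1.60 ± 0.10 in E3 and 1.66 ± 0.10 in E4 (SE). Ccnd2, cyclin D2, was 295 ± 29.2 in WT and 34.9 ± 6.43 in Apoe-/- (SD, n = 5 each), a fall of 3.01 ± 0.18 (SE) on the log2 scale, and 322 ± 46.8 in E4 (n = 5). Of 10 tested growth factor signals, Csf1, the ligand of the CSF1 receptor, was 152 ± 39.2 in WT, 115 ± 8.14 in E3 (n = 4), 66.4 ± 9.96 in E4 and 23.3 ± 4.01 in Apoe-/- (SD, n = 5), while the receptor gene Csf1r was 860 ± 104 in WT, 445 ± 50.2 in E3 (n = 4), 563 ± 50.8 in E4 and 933 ± 93.6 in Apoe-/-. Csf1 fell by 0.78 ± 0.17 in E4 against E3 and by 2.58 ± 0.16 in Apoe-/- against WT (SE). The whole lists did not follow single genes. Growth factor signals (11 genes) had median sums of 2340 (WT), 2010 (E3), 2090 (E4), 2660 (Apoe+/-) and 3100 (Apoe-/-) without myelin. For G1 cyclins and kinases (14 genes) they were 884, 1020, 818, 368 and 411 in the same order.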

How the data were processed

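PolyA RNA of 47 samples was made into libraries with a SMARTer kit, as the labels' protocols say, and the authors deposited TPM per gene. The submitters' processing notes name Salmon 0.13.1, limma 3.40.6 and mm10, with no role, and the annotation release is not given in the sources used here. Columns carry the sample titles and were joined on them. Here, TPM of nuclear protein-coding genes were rescaled to 1e+06 per library, then divided by a factor from a trimmed mean of log ratios (30% of ratios and 5% of levels trimmed). TPM hold no depth, so no counting interval is given. Tests covered coding and lincRNA genes that reached 5 scaled TPM in 4 or more libraries (10614 and 280 genes, mitochondrial genes left out). limma 3.58.1 (R 4.3.3) fitted 10 group means to log2(scaled TPM + 1), on which scale fold changes of low genes come out too small, with library weights from arrayWeights and a trended empirical Bayes step. Tests of 17 comparisons were two-sided, with Benjamini-Hochberg adjustment over all tested genes. The script was tested on simulated data. The labels do not say whether replicate numbers pair libraries, and the main fit did not pair them. Deviations of same-numbered libraries correlated between -0.55 and 0.46, over 0.1 in 5 of 23 pairs, which cannot show whether they were paired. Alternatives were scaling to the coding total, equal weights, no low-coding libraries, a pseudocount of 0.25, no filter, a replicate block, each library left out and, chosen after seeing the data, a weighted fit without low-coding libraries.

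The members, and the 5 lists of related genes and the marker lists, were chosen with earlier results of these data known. All members could be named. Values in full were set for the 3 members of highest mean level in each role class and the 3 of smallest p in each comparison, and at most 3 called genes of smallest p from each related list; of these, a selection is printed, some as mean ± SD or range. Cdkn1a, Lum and Rgs5 were named after their values were seen, as were further values of named genes. All tested identifiers were found in the GENCODE annotation for GRCm38; promoters came from RefSeq for GRCm38.p6.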

Additional observations from a re-analysis of the deposited data

Results flagged for a closer look

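Among 290 sets of 4 or 5 libraries (29 members in 10 groups), 16 held a library that stood apart by Dixon's 95% critical value, which chance gives in about 1 set of 20. In untreated E3 replicate 2 stood apart for 3 members: Mcm4 at 11 scaled TPM, the others 14.6 to 15, Kif20a at 13, the others all 15, and E2f1 at 16.3, the others 12.4 to 12.8. In untreated E4 replicate 5 had Mcm2 at 13.2, the others 15.5 to 16.3, and in E3 with myelin replicate 3 had Mcm6 at 48.2, the others 43.2 to 43.7.

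The Apoe+/- groups held 6 such values, in 4 libraries. Untreated replicate 4 had Tyms at 26.5 (others 11.9 to 15.7), and replicate 5, with a coding share of 0.468%, had Ccne2 at 9.27 (others 0.853 to 2.93) and Cenpa at 12.5 (others 31.4 to 36.8). With myelin replicate 4 had Tyms at 20.1 (others 9.03 to 10.7) and Cdc45 at 3.84 (others 1.99 to 2.16), and replicate 1 had Cdt1 at 19.4 (others 25.1 to 25.4).

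In the remaining groups E4 myelin replicate 2 had Top2a at 13.8 (others 10.5 to 11.2) and replicate 4 had Ccne2 at 6.14 (others 2.33 to 3.42). Untreated Apoe-/- replicate 1 had Top2a at 5.55 (others 8.52 to 9.71), Apoe-/- myelin replicate 2 had Cenpa at 52.3 (others 36 to 39.1), and untreated WT replicate 3 had Ccne2 at 12.5 (others 7.94 to 9.23).

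By a test of the difference in the weighted limma fit, myelin responses differed from that of WT for some members (log2 scale). In E3 these were Tk1 (-0.38), Uhrf1 (-0.61) and Ccna2 (-0.81), and in E4 Mcm6 (0.37), Pcna (0.45) and Ccna2 (-0.81). In Apoe-/- they were Mcm2 (0.52), Mcm4 (0.54), Mcm6 (0.57), Bub1 (0.70), Bub1b (0.69) and Kif11 (0.61). Of all genes 6.43% were more positive and 3.74% more negative in E3, 5.81% and 3.97% in E4, and 5.93% and 6.13% in Apoe-/-. With equal weights on all libraries no member was called in any of them, and the counts moved when single libraries were left out.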

How the results depend on the processing

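Counts are of members called of 42 in limma (44 without the filter), and the cause of each shift was not tested. Percentages beside them are of all tested genes, called in either direction. Scaling to the coding total alone gave 15 for E3 against WT (60.9%) and 1 for the E3 minus WT interaction (8.42%). Equal weights on all libraries gave 0 for the myelin responses of E3, E4, Apoe+/- and Apoe-/- (0.0459%, 2.06%, 0.266% and 0.119%). They also gave 0 for the interactions of E3, E4 and Apoe-/- with WT (0%, 0.0275% and 0.0459%). The mean response gave 2 (9.37%) and E3 against WT 11 (35.9%). E4 against E3 gave 14 untreated (6.03%) and 4 with myelin (4.33%). Equal weights without low-coding libraries gave 2 (E3 response, 5.31%), 0 (Apoe+/-, 0.121%), 5 (Apoe-/-, 2.33%), 4 (mean, 16.6%) and 11 (E4 against E3 with myelin, 11.3%). For the interactions of E3, E4 and Apoe-/- with WT they gave 0, 1 and 3 (2.14%, 4.62% and 3.39%). No filter on low values gave 3, 0, 6 and 3 for the E3, Apoe+/-, Apoe-/- and mean responses (3.06%, 0.458%, 1.17% and 5.1%). For those interactions it gave 0, 1 and 3 (1.17%, 2.43% and 2.33%). With weights but without low-coding libraries, chosen after seeing the data, Apoe+/- gave 0 (0%) and the mean response 4 (16.7%). With the replicate number as a block, the Apoe+/- response gave 1 (1.79%), the mean 8 (20.5%) and the Apoe-/- minus WT interaction 11 (17.5%). In 3 of 23 pairs the libraries correlated best with their own number. The Apoe+/- responses of Ccnb1 (0.11), Bub1b (0.34), Plk1 (0.08) and Birc5 (0.11) turned positive with equal weights.

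Leaving out 1 library at a time gave 1 to 2 members for the WT response, 3 to 10 for E3, 4 to 7 for E4, 0 to 34 for Apoe+/-, 5 to 21 for Apoe-/- and 0 to 21 for the mean. Against untreated WT it gave 18 to 27 in E3, 38 to 39 in E4, 33 to 42 in Apoe+/- and 39 to 40 in Apoe-/-, and 39 to 41 in Apoe-/- with myelin. For E4 against E3 it gave 29 to 35 untreated and 5 to 26 with myelin. The interactions ranged over 0 to 6 (E3), 1 to 6 (E4), 3 to 13 (Apoe-/-) and 0 to 2 (E4 minus E3). The last was at 2 without E4 myelin replicate 1. These counts with a library left out come without a share of all genes.

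Scaling to the coding total moved the share of all calls that were higher from 63.7% to 44.3% (E4 response), 59.1% to 40.7% (Apoe-/- response), 42.5% to 54.4% (E3 against WT) and 40.4% to 53.4% (E4 against WT). For interactions it moved from 59.4% to 36.2% (E4 with WT), 49.2% to 30.8% (Apoe-/- with WT) and 51.3% to 18.2% (E4 with E3). The weight estimation stopped before convergence in some refits that left out a library.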
